A study of Brassica napus with 24 samples.

Results

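Of the 43603 Brassica probes on the arrays, 150 were chosen by their signals in mock-treated plants, as the transcripts that were lowest in late anthers relative to the other 3 tissues. The values used were the authors' normalised log2 signals, averaged over the 3 mock-treated replicates of each tissue. A probe was considered where its means in the other tissues (leaves, whole small buds, and anthers from buds of middle size) lay within a range of 3 on the log2 scale, which held for 37727 probes. Its score was the lowest of these 3 means minus the mean in anthers of large buds, and the 150 highest scores were taken. Scores ran from 5.17 down to 2.70, so the fall in mock-treated large bud anthers is the choice itself and not a result. The last 3 probes inside the limit were A_46_P309935, A_46_P171644 and A_46_P078651, with scores of 2.71, 2.71 and 2.70, and the first 3 outside it were A_46_P345430, A_46_P061506 and A_46_P226969, each with a score of 2.70.

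The samples were taken from field-grown rapeseed (Brassica napus) cultivar Zhongshuang No. 9 sprayed at bolting with about 15 ml per plant of either 0.1 μg/ml monosulfuron ester sodium (MES) in DMF and Tween 80, or DMF and Tween 80 alone (mock). MES is a sulfonylurea that inhibits acetolactate synthase, the enzyme that opens the synthesis of branched-chain amino acids, and at this dose it leaves the plants male sterile. Each treatment gave 3 replicates of young leaves of the main inflorescence (Ls), small buds up to the pollen mother cell stage (SBs), anthers of middle buds from meiosis to early microspores (An-MBs) and anthers of large buds from vacuolated microspores to mature pollen (An-LBs). All 24 RNAs were hybridised to one-colour Agilent arrays, and an anther sample mixes wall, tapetum, connective and developing pollen.

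In an anther, the tapetum is the inner wall layer that feeds the microspores, and it breaks down as pollen matures. Late in development the RNA of a fertile anther comes to a large extent from pollen, which carries a transcript set of its own, while transcripts of the wall layers and of general cell activity make up a smaller part. In bulk samples such as these, fewer cells of a type and less RNA per cell cannot be told apart.

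The label of transcripts that are switched off was only partly borne out by detection. In mock An-LBs 56 of the 150 members were still well above the local background on all 3 arrays, 58 on 2, 17 on 1 and 19 on none. In mock Ls, SBs and An-MBs 146, 149 and 150 members were well above background on all 3 arrays. Of all probes 70.0%, 74.1% and 76.4% were so in these tissues, and 74.4% in mock An-LBs. The members are therefore described below as transcripts low in late fertile anthers.

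A single array carried much of the choice. Mock An-LBs replicate 2 had a median of 4.43 over the 150 members, against 6.82 in replicate 1 and 6.42 in replicate 3, on the log2 scale with quantiles equalised over the arrays. Only 56 members were well above background on replicate 2, against 123 and 122 on the others, where 76.4%, 77.9% and 79.2% of all probes were. Of the 150 members, 136 had their lowest mock An-LBs value on replicate 2. Members were lower on replicate 2 than on replicate 1 in 143 of 150 cases, while 41.0% of all probes were. With this array left out of the rule, 91 of the 150 were chosen again, and the median score of the 150 was 2.47 in place of 3.09. The differences between MES and mock An-LBs below are therefore given with and without this array.

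Other arrays also stood apart in ways that touch the members. MES An-MBs replicate 2 was dim, with a median raw signal of 384 against 1098 and 1162, and its median over members was 10.45 against 8.69 and 9.23. Mock An-LBs replicate 2 also had the lowest raw median of its group, 431 against 553 and 702. So did MES Ls replicate 1, at 378 against 495 and 749. The part of raw brightness in the results was not tested. MES An-LBs replicate 2 lay on a slide of its own and was read by another scanner on another day. The other slides held 1 replicate number of 1 treatment each, so treatment and slide cannot be told apart.

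**Figure D1:**
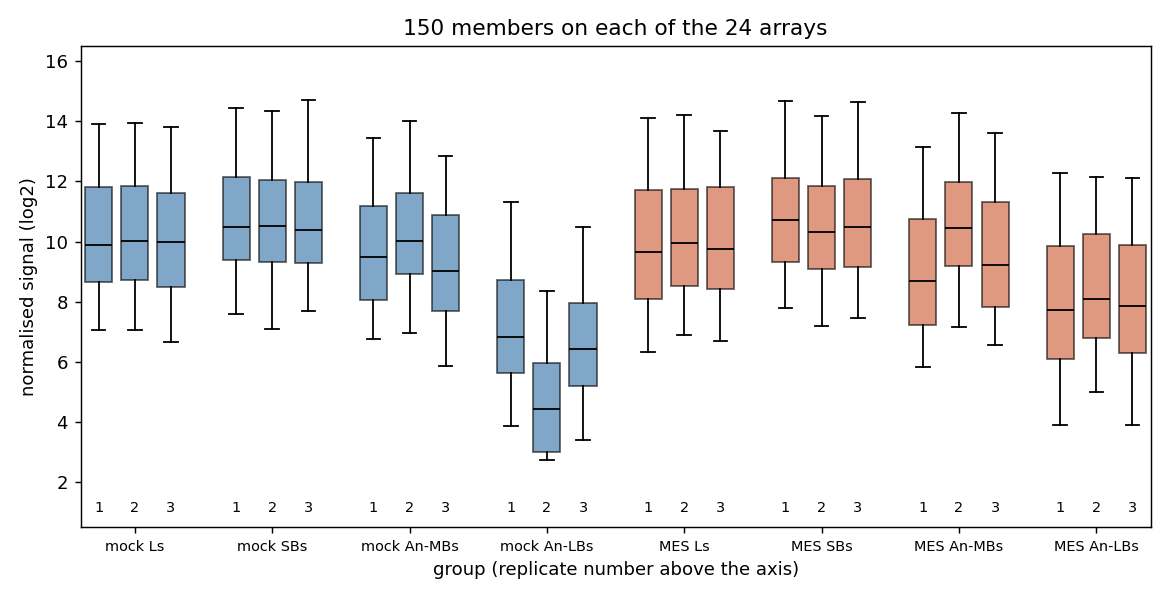
Normalised signals (log2, vertical axis) of the 150 members on each of the 24 arrays, grouped by treatment and tissue (horizontal axis, replicate numbers above it). Boxes span the interquartile range of the members with the median as a line, and whiskers the central 90% of the members. The mock An-LBs boxes were low by choice of the members, and replicate 2 is the lowest of the 3 with a median of 4.43.

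Across the tissues of mock-treated plants the members were not evenly expressed, although the rule required only that they lie within a range of 3. The median over members of the group means was 9.95 in mock Ls, 10.43 in mock SBs, 9.50 in mock An-MBs and 5.89 in mock An-LBs. The mock An-LBs median was 6.67 without replicate 2. SBs held the highest mean for 91 members, Ls for 47 and An-MBs for 12. In MES-treated plants the order was similar, with SBs highest for 92 members, Ls for 44, An-MBs for 12 and An-LBs for 2. The medians over members were 9.84 in MES Ls, 10.42 in MES SBs, 9.47 in MES An-MBs and 7.81 in MES An-LBs.

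The members varied more between replicates than all probes did in each group, with wider gaps in anthers than in leaves and small buds. Their median standard deviation over the 3 replicates was 0.77 in mock An-MBs, 0.89 in MES An-MBs and 0.55 in MES An-LBs, against 0.24, 0.43 and 0.28 over all probes. In mock An-LBs, where replicate 2 stood apart, it was 1.32 against 0.25. In SBs the difference was small, with 0.27 for members against 0.24 for all probes in mock plants and 0.34 against 0.25 in MES plants. In Ls it was 0.27 against 0.20 in mock plants and 0.53 against 0.38 in MES plants, where members varied about as much as in MES An-LBs.

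The MES-treated samples took no part in the choice, so they allowed a test of whether the same transcripts were also low in the large bud anthers of sterile plants. A probe was called where its adjusted p in limma was under 0.05 over all probes tested and its change was at least 2-fold. All 150 members passed the filter of being well above background on 3 of the 6 arrays. On all 3 MES An-LBs arrays 124 of them were well above background, beside 74.8% of all probes. Members were lower in MES An-LBs than in the buds and leaves of the same treatment, and the difference from middle bud anthers was smaller and less secure.

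Against MES SBs, 123 of the 150 members were called lower in MES An-LBs, where 18.7% of all probes were, and 1 was called higher, where 15.5% of all probes were. The median log2 difference was -2.82 over members and -0.08 over all probes. In 129 members all 3 MES An-LBs values lay below all 3 MES SBs values, where 32.7% of all probes did so. Against MES Ls, 100 members were called lower beside 15.2% of all probes, and none was called higher beside 14.0% of all probes. Here 122 members were lower and 1 was higher at an unadjusted p under 0.05 in limma. The share of all probes at that threshold was not counted, so nothing is read from these counts. The median difference was -1.76 over members and 0.01 over all probes, and 119 members had groups that did not overlap in that direction, as had 26.0% of all probes. Counts stayed between 116 and 125 against SBs and between 75 and 93 against Ls when each array was left out in turn. The shares of all probes were then 16.0% to 19.3% and 11.4% to 17.5%.

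Against MES An-MBs, 26 members were called lower beside 3.32% of all probes, and none was called higher beside 4.08% of all probes. Without adjustment 77 members were lower and 2 were higher at p under 0.05. The share of all probes at that threshold was not counted, so nothing is read from these 2 numbers. The median difference was -1.59 over members and 0.01 over all probes, and 141 members had a negative difference, as had 49.6% of all probes. Without MES An-MBs replicate 2, the dim array with high member values, the median over members was -0.98. The 3 values of MES An-LBs lay below the 3 of MES An-MBs in 81 members, where 19.3% of all probes did so, and above them in 3 members, where 20.0% of all probes did so. The count of calls fell to between 2 and 21 when single arrays were left out. It fell to 0 with the slide as a block, where no probe at all was called lower. Without MES An-MBs replicates 1, 2 and 3 it was 5, 21 and 2, beside 0.57%, 4.17% and 0.427% of all probes. Without MES An-LBs replicates 1, 2 and 3 it was 4, 2 and 6, beside 0.357%, 0.179% and 0.872%. The calls thus depended on the arrays present, both over members and over all probes.

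**Figure D2:**
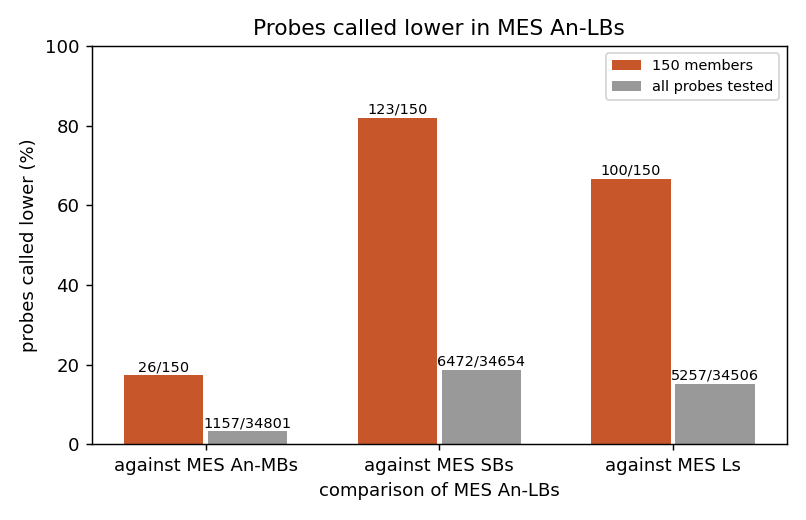
Share of probes called lower in MES An-LBs (vertical axis, percent) against the 3 other MES-treated tissues (horizontal axis), for the 150 members and for all probes tested, with the counts above the bars. Members were called lower in 82.0% of cases against SBs and in 66.7% against Ls, beside 18.7% and 15.2% of all probes.

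Of the 150 members, 19 were called lower in all 3 comparisons, 92 against both SBs and Ls, and 19 in none, beside 0.642%, 6.91% and 73.8% of the 33776 probes tested in each. These comparisons share the MES An-LBs arrays.

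The 10 members with the highest scores are known here only by their array identifiers, except 1 that the study paired with an Arabidopsis gene. A_46_P099334 (ES900736), the highest, read 10.35, 11.12 and 10.82 in MES An-MBs and 8.07, 7.63 and 7.61 in MES An-LBs. The groups did not overlap, and the probe was called lower by -3.00 ± 0.29 (SE, limma adjusted p = 0.0053). It was also called lower than in MES SBs, by -2.18 ± 0.28 (limma adjusted p = 0.0014), and than in MES Ls, by -3.66 ± 0.34 (limma adjusted p = 0.00064). In mock An-LBs it read 6.55, 2.80 and 6.40, so that the 2 other replicates were below every MES An-LBs value too.

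A_46_P338823 (TC90682) was paired with AT2G47485, which codes for an unknown protein, and had a score of 5.12 with or without mock An-LBs replicate 2. It read 3.56, 3.29 and 3.02 in mock An-LBs and was not well above background on any of these arrays. The fall from mock An-MBs, where it read 8.81, 8.22 and 8.21, can thus be given only as at least 11.7-fold, with each dim array set to the weakest signal that still passed its background flag, or to the probe's own value where that was higher. In MES An-LBs it read 5.78, 6.07 and 6.29, above background on all 3 arrays and at least 2.27-fold over mock An-LBs, or 2.5-fold without replicate 2. Within the MES-treated plants it was called lower in An-LBs than in SBs by -4.68 ± 0.24 (limma adjusted p = 0.00011) and than in Ls by -4.21 ± 0.76 (limma adjusted p = 0.0075), whereas -1.68 ± 0.65 against An-MBs was not called (limma adjusted p = 0.17).

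Among the others of the first 10, A_46_P161029 (TA29152_3708), A_46_P201899 (CD828690) and A_46_P350500 (TC96853) were called lower in MES An-LBs than in MES An-MBs, by -3.93 ± 0.78, -4.63 ± 0.91 and -4.49 ± 0.93 (limma adjusted p = 0.037, 0.036 and 0.041). Each of these 3 calls was lost in 5 of the 6 fits that left out 1 array, and that of A_46_P099334 was lost without MES An-LBs replicate 2 (limma adjusted p = 0.054). A_46_P161029 and A_46_P201899 were not well above background on all 6 arrays, so the size of their falls is not firm. With normexp background correction A_46_P201899 differed by -2.28 and was not called (limma adjusted p = 0.061), while A_46_P161029 and A_46_P350500 stayed called, at -2.91 and -3.79. A_46_P020071 (EV024484) had a larger standard error, -4.15 ± 1.09, because MES An-LBs replicate 1 read 4.70 beside 8.73 and 8.61, and was not called (limma adjusted p = 0.072). The weakest signal on that array that passed its background flag was 5.34. A_46_P020071 was called without that array (-2.82, limma adjusted p = 0.046) and with normexp correction (-3.30, limma adjusted p = 0.024). It was not called when any other single array was left out. A_46_P231229 (CX192894), A_46_P036381 (FG567389), A_46_P339775 (EV090760) and A_46_P227059 (CX189893) differed by -0.59, -0.87, -1.65 and -0.58 and were not called. A_46_P227059 turned to 0.22 when MES An-MBs replicate 3 was left out.

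The scores of these 10 leaned on the doubted array to different degrees. A_46_P350500 read 10.16, 2.95 and 8.29 in mock An-LBs, and its score of 4.32 was 2.22 without replicate 2, which left it outside the 150. A_46_P036381 read 4.88, 2.85 and 3.52 there, and its score was 4.19 with replicate 2 and 3.74 without it.

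Among members well above background on all 6 arrays, the largest falls from MES An-MBs to MES An-LBs were those of A_46_P350500, A_46_P007946 (CN825997), A_46_P192739 (CD819323), A_46_P083786 (EE511084) and A_46_P328110 (TC83796). A_46_P007946 read 14.02, 11.99 and 13.73 in MES An-MBs and 9.59, 10.05 and 9.89 in MES An-LBs, and was called at -3.40 ± 0.55 (limma adjusted p = 0.022). A_46_P328110 read 12.05, 12.07 and 11.77 against 7.92, 9.12 and 9.75 and was called at -3.03 ± 0.47 (limma adjusted p = 0.02). Neither pair of groups overlapped. The first call was lost in 5 of the 6 fits without 1 array and the second in 3, without MES An-MBs replicate 1, MES An-MBs replicate 3 or MES An-LBs replicate 2. A_46_P192739 and A_46_P083786 had differences of -3.34 ± 0.82 and -3.12 ± 1.10 that were not called (limma adjusted p = 0.062 and 0.14), and in both the bright value was that of MES An-MBs replicate 2, at 12.01 and 11.67.

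At the other end, 9 members had a mean in MES An-LBs at or above that in MES An-MBs, and the 5 with the highest difference among those above background on all 6 arrays are given here. A_46_P345705 (TC94473) read 11.74, 10.60 and 10.18 in MES An-MBs and 13.60, 12.39 and 12.26 in MES An-LBs, a difference of 1.91 ± 0.54 that was not called (limma adjusted p = 0.085). It was the 1 member called higher than in MES SBs, by 4.08 ± 0.46 (limma adjusted p = 0.00094). A_46_P308255 (TC65261), A_46_P106139 (EV094524) and A_46_P217364 (CN729971) differed by 1.04, 0.67 and 0.58 and were not called.

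The fifth, A_46_P017076 (ES914004), was paired with AT2G15890 or MEE14 (maternal effect embryo arrest 14), a gene named in Arabidopsis from a mutant defect that passes through the female gametophyte. It read 14.86, 15.20 and 15.10 in MES An-MBs and 15.78, 15.45 and 14.91 in MES An-LBs, with a difference of 0.33 ± 0.29 (limma adjusted p = 0.49). It was close to as high in MES Ls, at 15.53, 16.07 and 15.22, and in MES SBs, at 14.57, 14.29 and 14.98. The mock Ls read 13.69, 13.35 and 12.76, and the mock SBs 11.43, 12.03 and 11.43. The mock anthers read 10.98, 12.24 and 12.72 at the middle bud stage and 8.45, 7.26 and 8.53 at the large bud stage. The 3 MES values lay above the 3 mock values in each of the 4 tissues. A second member of the same identifier, A_46_P344365, had MES An-LBs and mock An-LBs means of 15.01 and 8.04, beside 15.38 and 8.08 for A_46_P017076, so both probes gave the same picture. Without mock An-LBs replicate 2 their mock An-LBs means were 8.06 and 8.49.

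The last named gene, A_46_P154569 (TA27083_3708), was paired with AT5G36710, an unknown protein. It read 11.25, 14.05 and 12.39 in MES An-MBs and 10.82, 11.56 and 10.72 in MES An-LBs, which overlap, and the difference of -1.52 ± 0.70 was not called (limma adjusted p = 0.22). It was called lower than in MES SBs by -3.51 ± 0.29 (limma adjusted p = 0.00037) and than in MES Ls by -1.43 ± 0.27 (limma adjusted p = 0.0091). Its score of 3.30 was 2.32 without mock An-LBs replicate 2, outside the 150.

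**Figure D3:**
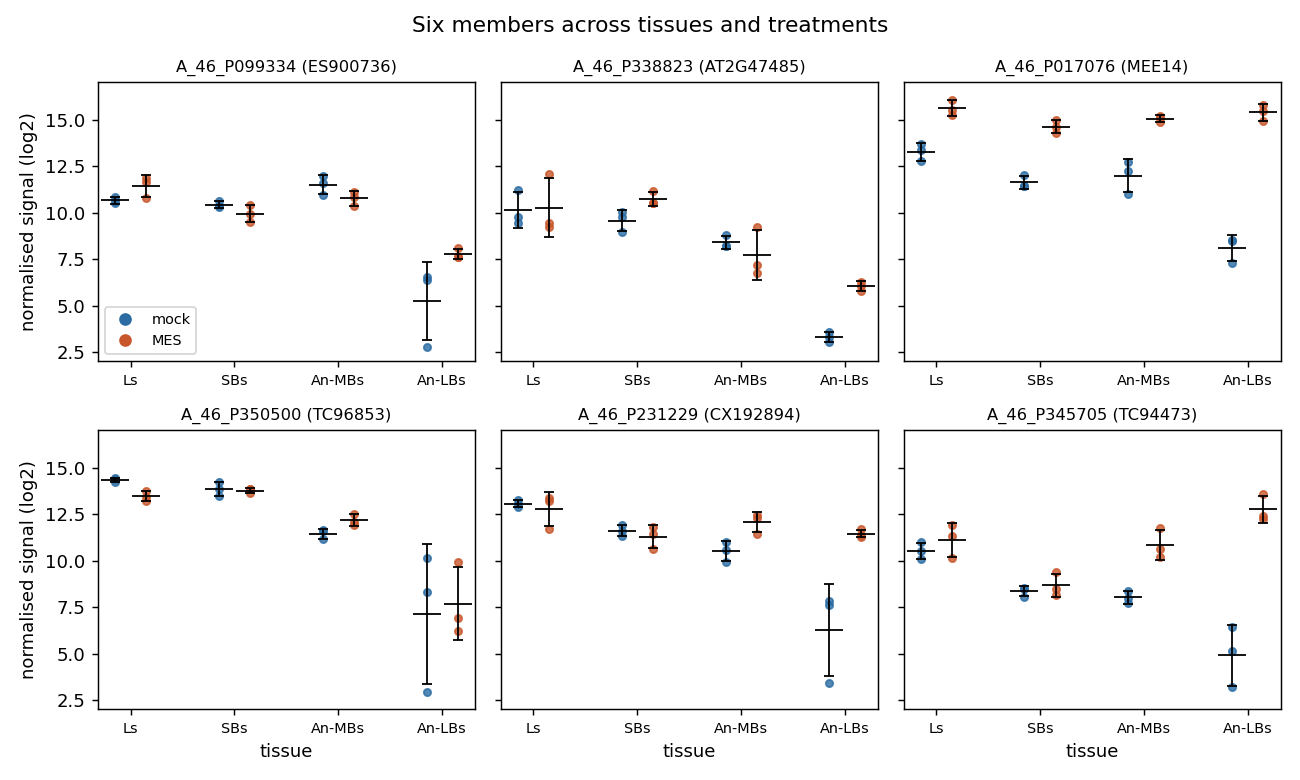
Normalised signals (log2, vertical axis) of 6 members in the 4 tissues (horizontal axis) of mock-treated and MES-treated plants. Points are single arrays, and black lines and bars are the mean and standard deviation of 3 replicates. MEE14 is above the mock values in every MES-treated tissue, while A_46_P099334 is low in the An-LBs of both treatments.

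The comparison of MES with mock plants asks how the treatment changed each tissue. The mock arrays chose the members, so the counts and differences here are a description. In An-LBs 138 members passed the filter and 47 of them were called higher in MES, beside 17.3% of all probes, and 1 was called lower, beside 11.9% of all probes. In 69 of the 138 the 3 MES values lay above the 3 mock values, where 35.7% of all probes did so, and in 1 they lay below, where 20.6% did so. Without mock An-LBs replicate 2 the MES values lay above in 69 members and 43.5% of all probes. Nothing is read from these shares, since low mock An-LBs values were a condition of membership. Over the 150 members the median MES minus mock difference was 1.49, and 0.74 without mock An-LBs replicate 2. With that array left out, 49 members were called higher, beside 18.9% of all probes. Without MES An-LBs replicates 1, 2 and 3 in turn the count was 30, 30 and 24 of 129, 122 and 124 members tested, beside 14.7%, 14.9% and 14.6%.

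Single members spread widely around that median, from -2.16 to 7.84, and from -2.32 to 7.19 without mock An-LBs replicate 2. The MES An-LBs mean was above the mock An-LBs mean in 144 members and lay between the mock An-LBs and the MES An-MBs mean in 135. Without that array these counts were 122 and 113. In the fit with all 6 arrays 2 of the 138 members tested had a negative difference, beside 39.3% of all probes. Low mock An-LBs means were a condition of membership, so nothing is read from these counts. A_46_P345705 read 5.13, 3.18 and 6.41 in mock An-LBs, where it was well above background on 1 array, and its difference was 7.84, or 6.98 without replicate 2. For MEE14 it was 7.30, or 6.89 without replicate 2, from groups that were all well above background. A_46_P106139 and A_46_P036381 were not well above background on any mock An-LBs array, and were at least 9.85-fold and 4.93-fold higher in MES. Without replicate 2 these bounds were 10.8-fold and 5.39-fold. The 1 member called lower, A_46_P310380 (TC68086), was named after its values were seen: it read 6.80, 6.24 and 6.65 in mock An-LBs and 2.99, 5.60 and 4.63 in MES An-LBs, with a difference of -2.16, or -2.32 without replicate 2. The 2.99 lay below 5.34, the weakest signal on that array that passed its background flag, so the size of the difference is not firm.

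**Figure D4:**
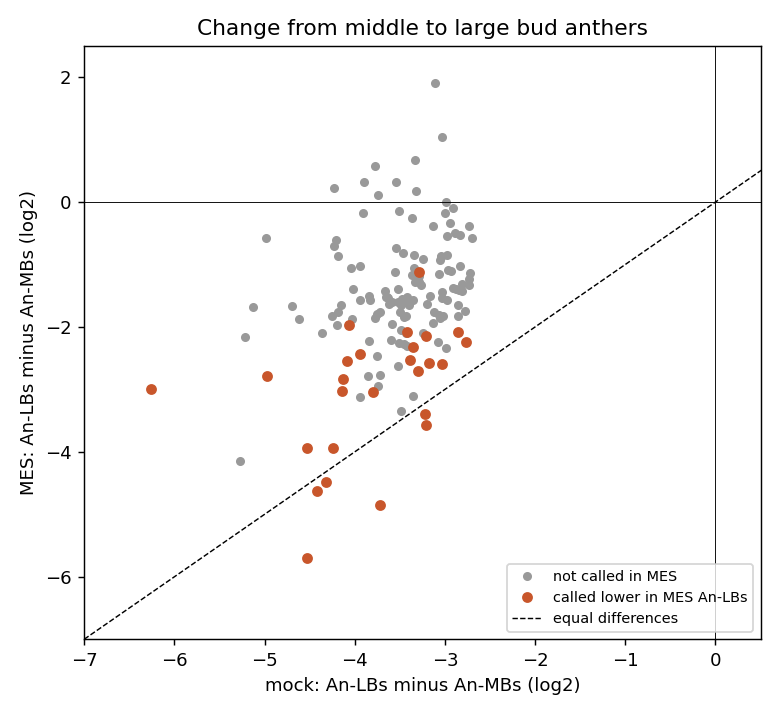
Difference between An-LBs and An-MBs (log2) of each of the 150 members in mock-treated plants (horizontal axis) and in MES-treated plants (vertical axis). The mock differences were fixed by the choice of members, the dashed line marks equal differences, and the 26 members called lower in MES An-LBs are coloured. Most members lie above the line, and 6 lie on or below it.

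In the other tissues the median differences between treatments were close to 0. In Ls 7 were called higher in MES and 7 lower, beside 2.52% and 2.29% of all probes. In SBs 7 were called higher and 7 lower, beside 1.81% and 2.32%. In An-MBs 11 were called higher and none lower, beside 4.24% and 2.86% of all probes. At an unadjusted p under 0.05 in limma 20 were higher and 8 lower in An-MBs, 20 and 26 in Ls, and 16 and 16 in SBs. The share of all probes at that threshold was not counted, so nothing is read from these numbers. The medians over members were -0.16, -0.09 and -0.14 for Ls, SBs and An-MBs, against -0.05, 0.05 and -0.04 over all probes. The counts in these tissues depended on the arrays present. In Ls the 14 calls, beside 4.81% of all probes, went to 0 without MES Ls replicate 1 or without any one of the mock Ls replicates. In each of these fits at most 0.0466% of all probes were called. In SBs the calls went to 0 without mock SBs replicate 1, beside 0.125% of all probes. In An-MBs the lowest count was 3, without mock An-MBs replicate 1 or 2, beside 0.738% and 2.26%. The highest was 24, without MES An-MBs replicate 2, beside 15.4%.

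The 11 members called higher in MES An-MBs were all among the 47 called higher in MES An-LBs, beside 2.99% of all probes tested in both that were called higher in both. Both groups of mock arrays entered the rule. Members called higher in MES in all 4 tissues numbered 4, beside 0.183% of all probes tested in the 4: both MEE14 probes, A_46_P152159 (TA26298_3708) and A_46_P355660 (EV184844). The last 2 were named after their values were seen. A_46_P152159 read 14.74, 14.00 and 13.82 in MES An-LBs and 6.76, 5.42 and 7.24 in mock An-LBs, and its differences in Ls, SBs and An-MBs were 2.58, 3.19 and 3.26. In An-LBs its difference was 7.72, or 7.19 without mock replicate 2. A_46_P355660 read 9.55, 8.91 and 9.65 against 5.53, 2.83 and 5.20, a difference of 4.85, or 4.01 without mock replicate 2, with 2.09, 1.41 and 2.25 in the other tissues.

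Probes that share a transcript gave a check on single members. The 150 members carried 146 identifiers, since 4 identifiers were each represented by a pair of members. EV132357 gave MES An-LBs means of 10.45 and 10.40 on A_46_P000361 and A_46_P165104, and mock An-LBs means of 8.76 and 8.84, or 10.26 and 10.30 without replicate 2. TA29701_3708 gave 9.95 and 8.95 on A_46_P162619 and A_46_P337350, and both were level from MES An-MBs to MES An-LBs, with differences of -0.14 and -0.00086. EV100317 gave 8.03 and 5.89 on A_46_P027476 and A_46_P189524, with differences of -1.44 and -1.23. The 2 probes of each pair moved alike between the anther stages, and their levels, which depend on the probe, were not set against each other.

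A further 4 members shared an identifier with a probe outside the 150. A_46_P089611, of the same EV090760 as A_46_P339775, had a score of 3.58 but a range of 3.05 and missed the range limit alone. A_46_P198604 and A_46_P104914 had scores of 2.67 and 2.36, and A_46_P246864 had 1.53. From MES An-MBs to MES An-LBs these 4 probes moved by -1.77, -1.57, -2.30 and -0.45, beside -1.65, -1.56, -1.86 and -2.21 for their member partners.

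Markers of the cell types in the samples moved between the same groups. All marker lists were picked by the study on these arrays, none of their probes is a member, and their part in the results was not tested. The 18 probes of pollen genes, among them VGD1, a pectin methylesterase of the pollen tube, had a summed normalised signal of 3205829 to 3400377 in mock An-LBs and of 2269 to 7199 in MES An-LBs, and all 18 were called lower in MES An-LBs. On mock An-LBs replicate 2 the sum was 3321720, inside the range of the other replicates. In MES An-MBs the pollen sum was 320 to 402. The tapetum genes LAP6, an enzyme of pollen wall synthesis, and AT3G52130, as 2 probes, summed to 329 to 54561 in MES SBs, 2048 to 3007 in MES An-MBs and 20.2 to 28.2 in MES An-LBs, where neither was well above background on any array. Both were called lower in MES An-LBs than in MES An-MBs and in MES SBs, beside 3.32% and 18.7% of all probes. Of the members, 26 and 123 were called lower in these comparisons. Against MES Ls neither tapetum probe passed the filter, whereas 100 members were called lower there, beside 15.2% of all probes. In mock plants the tapetum probes summed to 264534 to 309803 in SBs and to 224 to 438 in An-LBs. In mock An-MBs replicates 1, 2 and 3 the sums were 2937, 43.4 and 21.6, the last 2 below every mock An-LBs sum. Of the 2 tapetum probes only LAP6 had a higher mean log2 signal in mock An-LBs than in mock An-MBs, at 8.24 against 6.74. AT3G52130 had 3.48 against 3.63. The member medians on the log2 scale were 9.50 in mock An-MBs and 5.89 in mock An-LBs. The rule set every member lower in mock An-LBs than in mock An-MBs, so nothing is read from this contrast with the tapetum sums. The 23 photosynthesis probes summed to 109238 to 118272 in mock An-LBs and to 289240 to 369229 in MES An-LBs, and 19 were called higher in MES An-LBs and 1 lower. Against MES Ls, 21 of the 23 were called lower in MES An-LBs and 1 higher, with a median difference of -3.20, beside -1.76 for the members. Against MES SBs 6 were called lower and 2 higher, with a median of -0.71 beside -2.82, and against MES An-MBs the median was -0.15 beside -1.59.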

How the data were processed

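Biological replicates, 3 a group, of 4 tissues from mock-treated and MES-treated plants gave 24 one-colour arrays. The authors scanned the arrays and deposited signal intensity per spot from Agilent Feature Extraction (10.7.3.1 in the file headers, 9.1 in the submitters' processing notes), and a table of log2 values that their methods describe as quantile normalised in GeneSpring. Background-subtracted, processed intensities were averaged over spots of a probe (50 probes had more than 1 spot, and 1417 control spots were left out), put on the log2 scale and equalised by quantiles over all arrays. These values differed from the deposited log2 table by 6.54e-07 in the median and by at most 2.48. The deposited table chose the members. Quantiles take the same distribution for every array, so a level is relative to the other transcripts of that array. The deposited flags for spots well above background and for uneven spots are other columns of the same files.

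Comparisons were fitted with limma 3.58.1 in R 4.3.3 on the 6 arrays of each pair of groups, with probes well above background on at least 3 arrays and uneven spots at weight 0, two-sided, with Benjamini-Hochberg adjustment. The fit was tested on simulated data. Probes were called at an adjusted p under 0.05 and at least 2-fold. Array number limits the precision, at 3 per group. Probes were named by rule: the 10 highest scores, members paired with a gene in the study's tables, the 5 largest falls and the 5 smallest falls or largest rises from MES An-MBs to MES An-LBs among members above background on all 6 arrays, and 3 probes on each side of the score limit. The members, lists and rules were chosen with earlier results of these data known. Only 3 members had a gene identifier, none had a functional class other than unassigned, and none of the identifiers matched the Da-Ae RefSeq annotation.

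Replicate numbers come from the labels, which give no shared plant or day. The study pooled plants from a set of field rows of a treatment for each replicate. Equal numbers within a treatment may therefore share rows, which the labels do not state, and the main fits were not paired. Deviations of equally numbered arrays from their group means correlated at over 0.1 in all pairs only for MES against mock Ls, at 0.14, 0.25 and 0.43.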

Additional observations from a re-analysis of the deposited data

Results flagged for a closer look

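The groups hold 3 replicates each, which is too few for a test of single outlying samples. For 2 named members the 3 MES values lay above the 3 mock values in 1 tissue and below them in another. A_46_P350500 was higher in MES by 0.73 in An-MBs and differed by -0.90 in Ls, a gap of 1.62 between the tissues. A_46_P217364 was higher in MES by 4.80 in An-LBs (4.25 without mock An-LBs replicate 2) and differed by -0.54 in Ls, a gap of 5.34. Neither difference between tissues was tested, and the mock An-LBs values of both were part of the choice.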

How the results depend on the processing

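Counts of members called or chosen stayed within 1.5 times of the value reported in 91 cases and moved further in 51, each case being 1 count under 1 alternative. Among named members the direction from MES An-MBs to MES An-LBs turned once, for A_46_P227059, which ranged from -1.61 to 0.22 when single arrays were left out. The choice of members was moved by normexp background correction, which kept 77 of 150, and leaving out single mock arrays kept 91 to 146. Percentages in brackets below are the shares of all probes tested that were called in the same fit. For MES An-LBs against MES An-MBs the 26 calls (3.32%) became 13 without a filter on dim probes (2.13%). They became 16, of 123 members tested, with probes above background on all 6 arrays (3.39%). They became 56 with all 24 arrays in 1 fit (8.55%), 0 with slide as a block (0%), and 2 to 21 leaving out 1 array (0.179% to 4.17%). Without replicate 2 of both groups, an alternative chosen after seeing the data, 13 were left (1.65%). Whether equal replicate numbers share plants is not given, and the main fits left them unpaired. With replicate number as a block 8 were called here (0.44%), 124 against MES SBs (19.2%) and 90 against MES Ls (13.8%). In MES against mock An-LBs 48 were called higher (16.7%). In MES against mock Ls, SBs and An-MBs the replicate block gave 18 (6.19%), 8 (2.39%) and 9 (4.79%). The methods' t-test at their threshold called 1 (0.506%), 47 (5.46%) and 11 (3.81%) members lower in MES An-LBs than in MES An-MBs, SBs and Ls. After Benjamini-Hochberg it called 0 in each. It called 7 (4.67%) higher in MES against mock An-LBs, and 1 (0.162%) after adjustment. In Ls, SBs and An-MBs 3 (0.976%), 6 (0.784%) and 3 (1.90%) changed, and 0 after adjustment. In MES against mock An-LBs the main fit called 47 of 138 members higher. With probes above background on all 6 arrays it was 22 of the 55 members tested (16.8%). Leaving out 1 array gave 24 to 51, with 122 to 138 members tested (14.4% to 18.9%). Without a filter on dim probes, 9 were called in Ls (1.83%) and 8 in SBs (2.10%), and all 24 arrays in 1 fit gave 7 in SBs (3.64%). Leaving out 1 array gave 0 to 24 in Ls (0.00932% to 13.1%), 0 to 10 in SBs (0.125% to 3.47%) and 3 to 24 in An-MBs (0.738% to 15.4%). Leaving out the array on a slide of its own is the same as leaving out MES An-LBs replicate 2. The causes were not tested. Members near background have only a bound.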
